A study of Homo sapiens with 2 samples.

Results

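The genes described here keep DNA intact. They are 57 human genes of the checkpoint that halts the cell cycle at damaged DNA and of 6 repair routes, listed by name. Each gene was read from 1 probe set, its brightest, the one with the highest mean log2 level of both arrays, among probe sets annotated to that gene alone. By this rule 53 of the 57 were measured, out of 18132 genes in all, and 142 probe sets stood for them out of 49395. BRCA2, FANCA, FANCD2 and ERCC5 were not analysed here. For ERCC5, 4 probe sets named it only together with other genes.

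The study looked for genes under the control of EGR1, a zinc-finger transcription factor induced early by growth factors and stress, in human non-small cell lung cancer. The cells of one array were H1299 cells transfected with a pcDNA plasmid carrying EGR1, and those of the other were H1299 cells transfected with the empty pcDNA3.1 plasmid. Both were transfected transiently with a lipid reagent and collected at 48 hours. H1299 is an established lung carcinoma line that lacks p53, and both groups share that lack. RNA was read on Affymetrix arrays, with 1 array per group.

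With 1 array per group there is no replicate error, no test and no p-value, and each difference describes these 2 arrays only. The values are the authors' RMA log2 levels, on an arbitrary scale, and differences are EGR1 minus empty vector. No measurement was repeated except where a gene had more than 1 probe set. Among probe sets past the 40th percentile of mean level (5.22), their pooled SD was 0.15 over 7113 genes. It is a spread between probe sets of a gene, from whatever source, and holds no error between samples. Over the 33 members with more than 1 such probe set it was 0.20. Of the 6 probe sets of EGR1 itself, 2 were higher on the EGR1 array, by up to 3.73, and 4 were lower, by down to -0.39. The brightest of them is the one at -0.39, so the rule used for the members would read the transfected gene as lower. Of the 7 genes that describe the line, 5 lay past the 40th percentile, and they did not all keep their level. The keratins KRT8 and KRT18 differed by 2.00 and 1.76, KRT19 by 0.24, CDH2 by 0.08 and VIM by -0.07. The epithelial markers EPCAM and CDH1 lay under that level. Of the marker lists of other cells, 2 of 8 leukocyte, 0 of 7 fibroblast and 4 of 6 endothelial genes lay past the 40th percentile. The 2 leukocyte genes were CD3E, which differed by 0.30, and CD68, which differed by 0.13. The pan-leukocyte marker PTPRC read 2.80 on the EGR1 array and 2.95 on the empty-vector array. The part of these markers in the values below was not tested. In a bulk sample, fewer cells that express a gene and less RNA per cell cannot be told apart.

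Damaged DNA is sensed by the kinases ATM and ATR, which act through CHEK2 and CHEK1 to hold the cell cycle while the lesion is repaired. Double-strand breaks are mended by homologous recombination, which copies the sister chromatid, or by end joining, which ligates the ends directly. Crosslinks need the Fanconi proteins, bulky and ultraviolet lesions nucleotide excision, damaged single bases base excision, and replication errors mismatch repair. Many checkpoint and recombination genes are transcribed under E2F control around S phase.

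Most of the repair and checkpoint genes were slightly lower on the EGR1 array. Of 53 measured genes, 43 (81.1%) were below 0 and 10 were above, while 47.9% of all 18132 genes were below 0. The median difference was -0.12, a level 1.08-fold lower, against a median of 0 over all genes. The shift was small. The 25th and 75th percentiles of the members were -0.18 and -0.055, and the whole range ran from -0.52 (FANCM) to 0.19 (RAD9A). None of the 53 reached 1.5-fold in either direction, as 0.265% of all genes did toward lower and 0.86% toward higher levels. At 1.2-fold, 5 of 53 (9.43%) were lower (ATR, CLSPN, FANCL, FANCM and XPA), against 6.16% of all genes. This count lay near the background, but it depended on the probe sets used. Of the 142 probe sets of the members, 31 (21.8%) were 1.2-fold lower, against 8.68% of all probe sets. With the probe sets of each gene averaged, 10 members were, against 5.11% of all genes. None of the 53 was 1.2-fold higher, whereas 8.83% of all genes were. By more than the 0.15 between probe sets of one gene, pooled over all genes, 20 of 53 members were lower and 1 (RAD9A) was higher. All genes gave 18.8% lower and 21.6% higher. The members' own spread between probe sets was wider, at 0.20. RAD9A (0.19) did not exceed it, and neither did several of the 20 lower members, among them MRE11 (-0.19) and BRCA1 (-0.18). No share over all genes was taken at 0.20.

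The brightness of the members touches these counts. Of the 53, 52 lay past the 40th percentile of mean level, and PMS2 lay under it. Among all genes past that level 52.8% were below 0. Among the 4125 genes whose level fell between the 25th and 75th percentiles of the members' levels, from 7.07 to 8.77, 56.9% were below 0 and the median was -0.03. The members' own differences did not follow their level in one direction. Their medians were -0.12 in the dimmest 18 genes, -0.15 in the next 17 and -0.08 in the brightest 18.

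**Figure D1:**
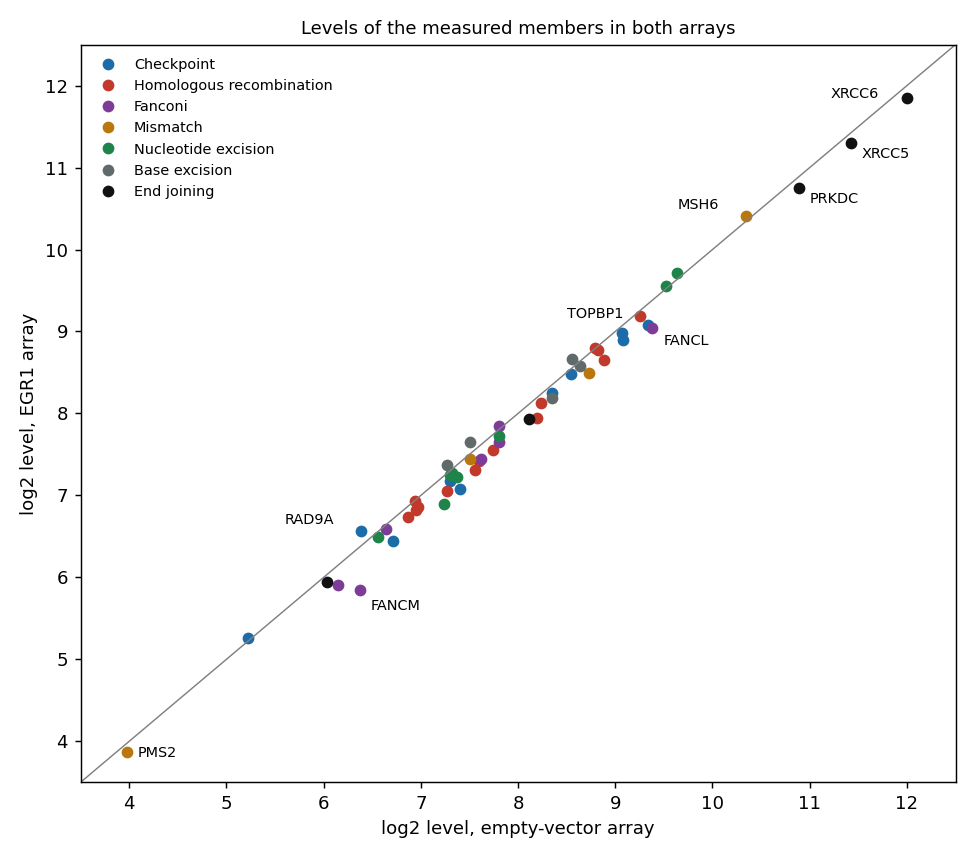
Log2 level of each of the 53 measured genes on the EGR1 array (vertical axis) against its log2 level on the empty-vector array (horizontal axis), coloured by route, with the line of equal level. The points follow the line closely, and 43 of 53 lie under it.

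All probe sets of the members, the brightest included, gave a similar picture. Of the 142 probe sets of the members, 109 (76.8%) were below 0, 31 were above and 2 read the same on both arrays, while 48.8% of all probe sets were below 0. In the 38 members with more than 1 probe set, the second brightest had a median difference of -0.10 and was below 0 in 30. The 2 brightest probe sets lay on opposite sides of 0 in 9 of the 38. Over all of their probe sets, 17 members were below 0 throughout, 3 (ERCC1, OGG1 and UNG) above 0 throughout, and 18 were mixed. The probe sets of a gene share the same 2 RNA samples and are not replicates of the condition.

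**Figure D2:**
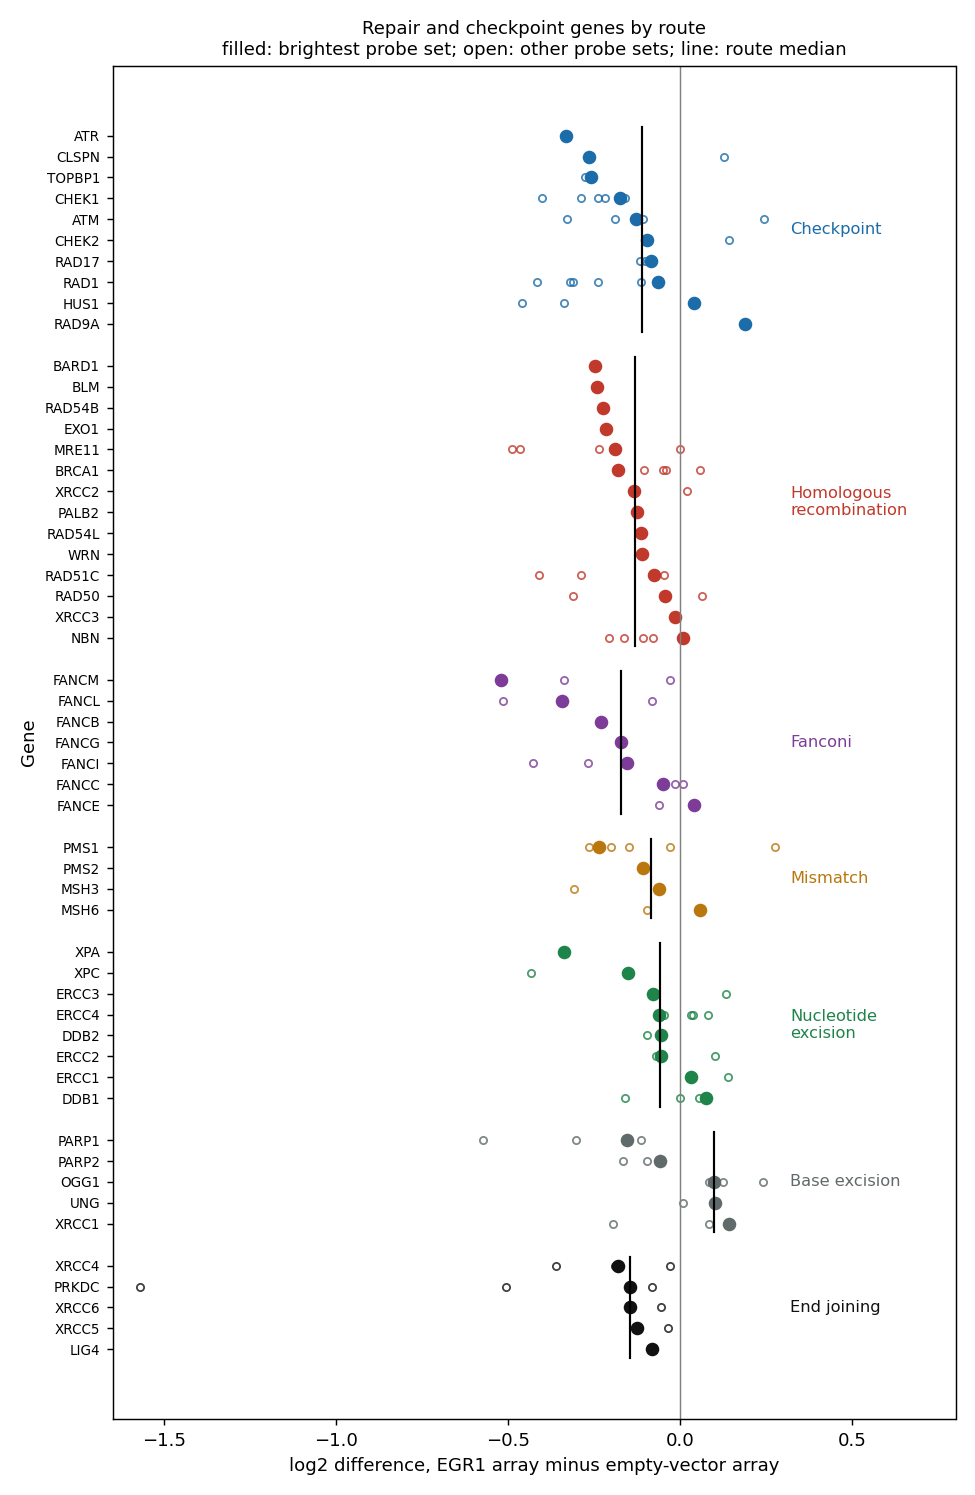
Log2 difference, EGR1 array minus empty-vector array, for each of the 53 measured genes, grouped by route. Filled points are the brightest probe set, open points the gene's other probe sets, and black lines the route medians, of which base excision alone lies above 0.

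Checkpoint genes were lower in 8 of 10 cases, with a median of -0.11. The share of all genes below 0, to be set beside this and each later route, was 47.9%. ATR, the kinase activated by single-stranded DNA at stalled forks, read 7.07 on the EGR1 array and 7.41 on the empty-vector array, 1.26-fold lower, by its 1 probe set. Its activator TOPBP1 read 9.08 on the EGR1 array and 9.34 on the empty-vector array, and its probe sets differed by -0.26 and -0.28. CLSPN encodes Claspin, the adaptor through which ATR activates CHEK1. It read 6.44 on the EGR1 array and 6.71 on the empty-vector array, a difference of -0.27, but its dimmer probe set differed by 0.13. CHEK1, the effector kinase of this arm, read 8.90 on the EGR1 array and 9.07 on the empty-vector array. All 6 of its probe sets were below 0, from -0.40 to -0.16 (SD 0.09 over 6 probe sets). These 4 genes were below 0 in 10 of their 11 probe sets, but CHEK1 alone gave 6 of the 11. RAD9A and HUS1, described below, also act in ATR activation and were above 0 by their brightest probe sets, at 0.19 and 0.04. The route as a whole was below 0 in 26 of 31 probe sets (83.9%). Among all probe sets of the array 48.8% were below 0.

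ATM, the kinase activated by double-strand breaks, read 7.17 on the EGR1 array and 7.30 on the empty-vector array, and its 5 probe sets ran from -0.33 to 0.24. Its effector CHEK2 read 8.25 on the EGR1 array and 8.35 on the empty-vector array, and its other probe set differed by 0.14. Both CHEK2 probe sets carry the suffix _x_at, so they may also pick up related transcripts. RAD9A, HUS1 and RAD1 form the ring-shaped 9-1-1 clamp, which RAD17 loads onto DNA and which works with TOPBP1 in the activation of ATR. RAD9A read 6.57 on the EGR1 array and 6.38 on the empty-vector array, and its difference of 0.19 was the highest of all 53 genes. HUS1 differed by 0.04 in its brightest probe set and by down to -0.46 in the others. RAD1 differed by -0.07 in its brightest and was below 0 in all 6, down to -0.42. RAD17 differed by -0.09, and its 3 probe sets agreed closely (SD 0.015). By their brightest probe sets the clamp subunits therefore did not lie on one side, though RAD9A had 1 probe set and HUS1 was dim.

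Homologous recombination genes were lower in 13 of 14 cases, with a median of -0.13 and a range from -0.25 to 0.007. BARD1, the partner of BRCA1 in a ubiquitin ligase, read 7.94 on the EGR1 array and 8.19 on the empty-vector array, 1.19-fold lower. BRCA1 read 7.42 on the EGR1 array and 7.60 on the empty-vector array, and 4 of its 5 probe sets were below 0. PALB2, which links BRCA1 to BRCA2, differed by -0.13. The BRCA1 complex members measured were all lower by their brightest probe set, by small amounts.

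The helicase BLM, which dissolves recombination intermediates, read 7.31 on the EGR1 array and 7.55 on the empty-vector array, 1.18-fold lower. The related helicase WRN differed by -0.11. EXO1, the exonuclease that extends resection, read 7.05 on the EGR1 array and 7.27 on the empty-vector array. RAD54B, a translocase of the recombination filament, differed by -0.22 and its relative RAD54L by -0.12. Of the recombinase paralogs, XRCC2 differed by -0.13, RAD51C by -0.08 and XRCC3 by -0.02. The MRN complex, which binds broken ends, was uneven. MRE11 (listed as MRE11A) read 7.56 on the EGR1 array and 7.75 on the empty-vector array, RAD50 differed by -0.04, and NBN differed by 0.007 with its other 4 probe sets from -0.21 to -0.08.

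Fanconi genes had the lowest route median, -0.17, with 6 of 7 measured genes below 0. FANCM, the translocase that recognises crosslinks at stalled forks, read 5.85 on the EGR1 array and 6.37 on the empty-vector array. At 1.43-fold lower it was the lowest of all members, although its dimmer probe sets differed by -0.34 and -0.03 (SD 0.25 over 3 probe sets). FANCL, the ubiquitin ligase subunit, read 9.04 on the EGR1 array and 9.38 on the empty-vector array, 1.27-fold lower, and its 3 probe sets ran from -0.52 to -0.08. FANCI, which the core complex ubiquitinates, differed by -0.16, and by down to -0.43 in its dimmer probe sets. Of the other core subunits, FANCB differed by -0.23, FANCG by -0.17, FANCC by -0.05 and FANCE by 0.04. The 3 genes FANCM, FANCL and FANCI were below 0 in all of their probe sets.

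The promoter of FANCM is printed because this gene had the lowest value among the members. It is the RefSeq window from 250 bases before to 50 after the start site, on the plus strand at chr14:45135680-45135979 (GRCh38.p14). It has no capitals because none of the EGR1 or E2F motifs searched below was found in it.
FANCM: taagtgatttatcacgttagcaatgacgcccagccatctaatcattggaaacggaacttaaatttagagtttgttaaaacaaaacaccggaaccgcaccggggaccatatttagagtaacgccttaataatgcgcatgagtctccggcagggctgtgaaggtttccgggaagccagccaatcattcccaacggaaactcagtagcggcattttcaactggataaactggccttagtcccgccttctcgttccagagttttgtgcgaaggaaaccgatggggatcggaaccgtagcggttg

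End-joining genes were below 0 in 5 of 5 cases, with a narrow range from -0.18 to -0.08 and a median of -0.15. XRCC6 and XRCC5, the Ku subunits that cap broken ends, read 11.85 and 11.30 on the EGR1 array and 12.00 and 11.42 on the empty-vector array. XRCC4, the scaffold of the final ligation, read 7.93 on the EGR1 array and 8.11 on the empty-vector array, with all 4 probe sets below 0. Its ligase LIG4 differed by -0.08. The 13 probe sets of this route were all below 0.

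PRKDC, the catalytic subunit of the DNA-dependent kinase, differed widely between its probe sets. Its brightest read 10.74 on the EGR1 array and 10.89 on the empty-vector array, a difference of -0.15. A dimmer one read 6.20 on the EGR1 array and 7.77 on the empty-vector array, 2.97-fold lower, which was the lowest difference of all 49395 probe sets. The remaining PRKDC probe sets differed by -0.08 and -0.51, and the SD over the 4 was 0.69. Where these probe sets lie in the transcript was not established here. With the mean of all probe sets PRKDC was -0.58.

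**Figure D3:**
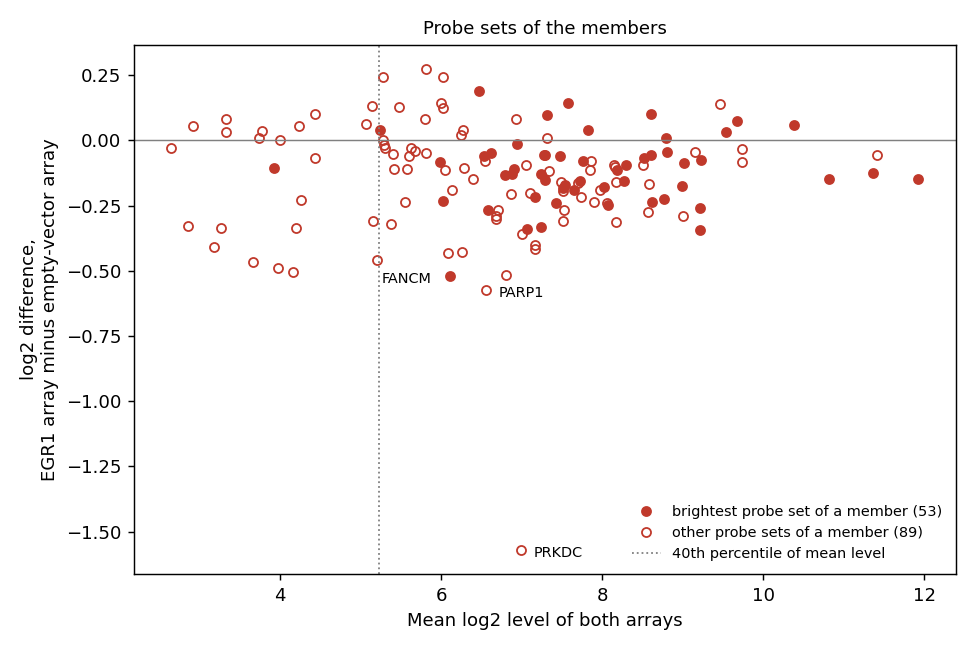
Log2 difference, EGR1 array minus empty-vector array, of the 142 probe sets of the members (vertical axis) against their mean log2 level (horizontal axis), with 53 brightest probe sets filled and 89 others open. One PRKDC probe set stands far below the rest at -1.57, and the next lowest is a PARP1 probe set at -0.57.

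Mismatch repair genes had a median of -0.08, with 3 of 4 below 0. PMS1, of the MutL family, read 8.50 on the EGR1 array and 8.73 on the empty-vector array, 1.18-fold lower. Of its 7 probe sets 6 were below 0, and a dimmer _x_at probe set differed by 0.27. MSH3 and MSH6, the mismatch-sensing MutS subunits, differed by -0.06 and 0.06. PMS2 read 3.87 on the EGR1 array and 3.98 on the empty-vector array, a dim level. Its only probe set is of the _x_at type, and the gene has many near-identical pseudogenes, so its value is uncertain.

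Nucleotide excision genes had a median of -0.06, with 6 of 8 below 0. The median was -0.0081 when all probe sets of a gene were averaged. XPA, which helps verify the lesion, was the 1 gene of the route past 1.2-fold. It read 6.90 on the EGR1 array and 7.24 on the empty-vector array, 1.26-fold lower, by 1 probe set. XPC, which recognises distorted DNA and is a known p53 target, read 7.22 on the EGR1 array and 7.37 on the empty-vector array, and its other probe set differed by -0.43. The other lesion sensors, DDB2 and DDB1, differed by -0.06 and 0.08. The TFIIH helicases ERCC3 and ERCC2 differed by -0.08 and -0.06, and each had a dimmer probe set above 0. The nuclease subunits ERCC4 and ERCC1 differed by -0.06 and 0.03. Of the 21 probe sets of the route, 11 were below 0 and 9 above, while 48.8% of all probe sets were below 0.

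Base excision genes were split. The scaffold XRCC1 read 7.65 on the EGR1 array and 7.51 on the empty-vector array, a difference of 0.14. OGG1 and UNG, the glycosylases that remove oxidised guanine and uracil, differed by 0.10 each. All 4 OGG1 probe sets, from 0.08 to 0.24, and both UNG probe sets were above 0. PARP1 and PARP2, which mark strand breaks with poly(ADP-ribose), lay on the other side. PARP1 read 8.19 on the EGR1 array and 8.35 on the empty-vector array, and all 4 of its probe sets were below 0, down to -0.57. PARP2 differed by -0.06, with all 3 probe sets below 0. The route median of 0.10 has no settled direction. When the brightest probe set was chosen on the empty-vector array alone, XRCC1 was -0.20 and the median -0.16. The difference between routes was not tested, as 1 array per group allows no test.

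Members known to be transcribed mainly in S phase were set beside the rest. The 11 measured ones (CHEK1, CLSPN, BRCA1, BARD1, RAD54L, BLM, EXO1, FANCI, MSH6, UNG and XRCC2) had a median of -0.18, and 9 of them were below 0. The remaining 42 members had a median of -0.09, and 34 were below 0. The share below 0 was thus alike in both, at 81.8% in the S-phase members and 81.0% in the remaining members. The gap between the medians depended on the processing. When all probe sets were averaged, the S-phase members had -0.12 and the remaining members -0.11, and with a lowess correction on level they had -0.12 and -0.074. Within the S-phase members UNG and MSH6 were above 0.

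Genes of the cell cycle were also mostly lower. A list of replication genes had a median of -0.15 with 32 of 39 measured genes below 0, and a list of mitosis genes had a median of -0.14 with 26 of 28 below 0. Their part in the values of the repair genes was not tested.

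Other genes of DNA repair and the checkpoint, 78 measured of 85 listed, had a median of -0.08. Of them, 56 (71.8%) were below 0 and 20 above, while 47.9% of all genes were below 0. At 1.2-fold 7 (8.97%) were lower and 2 (2.56%) higher, against 6.16% and 8.83% of all genes. The lowest past the 40th percentile was DCLRE1C, the end-joining nuclease Artemis, at 5.80 on the EGR1 array and 6.23 on the empty-vector array. It was 0.08 when _x_at and _s_at probe sets were left out. The translesion polymerase POLI differed by -0.43, with probe sets from -0.43 to -0.03, and the ubiquitin ligase SHPRH by -0.33. Averaged over their probe sets, DCLRE1C was -0.28 and POLI -0.21. The highest was FAAP100, a Fanconi core subunit, at 7.21 on the EGR1 array and 6.80 on the empty-vector array, 1.34-fold higher. MAD2L2, a subunit of polymerase zeta and of shieldin, differed by 0.27 and the end-joining factor NHEJ1 by 0.20. Of the other Fanconi core subunits, FANCF (0.13, dimmer than the 40th percentile) and FANCE were also above 0, and FANCM, FANCL, FANCB, FANCG, FANCC and the associated FAAP24 (-0.02) were below. FANCF and FAAP24 were named after their values were seen.

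**Figure D4:**
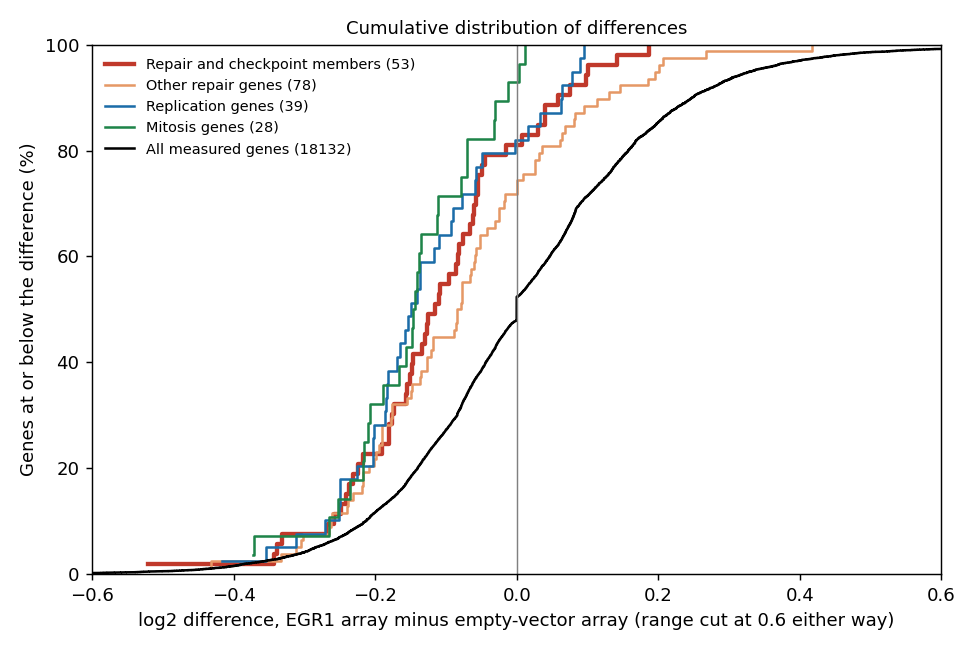
Percentage of genes (vertical axis) at or below each log2 difference, EGR1 array minus empty-vector array (horizontal axis), for 53 members, 78 other repair genes, 39 replication genes, 28 mitosis genes and all 18132 measured genes. The curves of the 4 lists lie left of that of all genes through most of the range, and at a difference of 0 the member curve is at 81.1%.

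Promoters were searched because EGR1 is a DNA-binding factor and many of these genes have E2F sites. RefSeq promoter windows (GRCh38.p14) were found for 50 of the 57 listed genes, of which 46 were measured. HUS1, NBN, RAD54B, WRN, FANCI, XRCC5 and PRKDC had no entry. The EGR1 motifs GCGTGGGCG and GCGGGGGCG, on both strands, were present in 5 of 50 member promoters (10%) and in 7.66% of 15843 protein-coding promoters. These motifs overlap the GC boxes of other factors. The matches of the 4 measured genes follow in the direction of the gene, with the motif in capitals and 10 bases on either side.
RAD9A: caatggggagGCGGGGGCGgggccggcag
FANCE: catcaaccccCGCCCCCGCcccgctccag
RAD54L: ccgccaccccCGCCCCCGCcccgcccctc
FANCB: actgcggtccCGCCCCCGCcagccgcgag

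These windows lie at chr11:67391933-67391961 on the plus strand for RAD9A and at chr6:35452126-35452154 on the plus strand for FANCE. They lie at chr1:46247490-46247518 on the plus strand for RAD54L and at chrX:14873237-14873265 on the minus strand for FANCB. The RAD9A match begins 43 bases before the start site, and the other 3 begin between 186 and 202 bases before it. The 4 genes differed by 0.19 (RAD9A), 0.04 (FANCE), -0.12 (RAD54L) and -0.23 (FANCB), so both the highest member and genes below 0 held a match. The 42 measured genes without a match had a median of -0.12, and 36 were below 0.

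The E2F motifs TTTCCCGC, TTTCGCGC, TTTGCCGC and TTTGGCGC, on both strands, were present in 12 of 50 member promoters (24%) and in 4.44% of protein-coding promoters. They were present in 6 of the 13 S-phase members with an entry (46.2%) and in 6 of the 37 remaining ones (16.2%), measured or not. The matches of 5 measured genes that lie nearest the start site follow in the same layout.
CLSPN: ctctggctggGCGGGAAAgcaagaacag
TOPBP1: cgcgcggttgGCGCGAAAgtcggttccc
EXO1: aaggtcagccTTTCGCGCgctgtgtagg
MSH6: tccccccagaTTTCCCGCcagcaggagc
XRCC2: ggcgttggtgGCGGGAAAgttgagtctc

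They lie at chr1:35769966-35769993 on the minus strand for CLSPN and at chr3:133661931-133661958 on the minus strand for TOPBP1. The EXO1 window lies at chr1:241848198-241848225 and the MSH6 window at chr2:47783138-47783165, both on the plus strand, and the XRCC2 window at chr7:152676103-152676130 on the minus strand. The CLSPN and TOPBP1 matches begin 5 and 7 bases before the start site and those of the other 3 begin after it. CLSPN, TOPBP1, EXO1 and XRCC2 differed by -0.27, -0.26, -0.22 and -0.13, while MSH6 differed by 0.06. Over the 10 measured genes with a match the median was -0.14 and 9 were below 0, and over the 36 without one it was -0.09 and 29 were below 0. FANCM, FANCL, XPA and ATR, the lowest 4 members, held neither motif. A match is a run of letters and does not show binding.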

How the data were processed

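The authors deposited log2 probe-set levels made with RMA, per the submitters' processing notes; their software version, settings and build are not given in the sources used. RMA gives no detection call, and the number of arrays limits the precision. Of 49395 probe sets, 44988 had 1 gene symbol in the platform annotation and were used. Symbols were updated through Entrez IDs to RefSeq (GRCh38.p14). Each gene took its brightest probe set, without a floor on level; no member had a tie. The difference was EGR1 minus empty vector, without further normalization. Because each group held 1 array, no test was made. Counts were taken below and above 0 and at 1.2-fold and 1.5-fold, beside the same over all genes. Both arrays' values are given for members at or beyond 1.2-fold and for the 2 members with the largest absolute difference in each route; among other repair genes the 3 highest and 3 lowest past the 40th percentile of level were named. Other members are named as the routes require, and for some of them both arrays' values are also given, outside this rule. The members and lists were chosen with earlier results of these data known. The procedure was tested on simulated data, with planted differences larger than almost all of those of the members and without error between arrays. That test therefore does not bear on differences as small as those reported here. Alternatives were the mean of all probe sets, leaving out _x_at and _s_at probe sets, a lowess correction (fraction 0.3), the 40th percentile as a floor, and the brightest probe set on the empty-vector array alone. Python 3.11.15, pandas 2.3.3, numpy 2.4.6 and statsmodels 0.14.6 were used.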

Additional observations from a re-analysis of the deposited data

How the results depend on the processing

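The median of the members stayed below 0 under all 5 alternatives, between -0.13 and -0.098, and the share of members below 0 ran from 77.4% to 84.9%. With the mean of all probe sets 10 members, not 5, were at least 1.2-fold lower, and 5.11% of all genes were. That setting gave medians of -0.17 for checkpoint, -0.23 for Fanconi, 0.0096 for base excision, -0.12 for S-phase members, -0.064 for other repair and -0.12 for replication genes, and differences of -0.07 for CLSPN, -0.30 for FANCM, -0.28 for DCLRE1C and -0.21 for POLI. The nucleotide excision median was -0.0081 there. With the lowess correction the medians were -0.12 for S-phase members, -0.040 for other repair, -0.10 for replication and -0.093 for mitosis genes. With the brightest probe set chosen on the empty-vector array alone, base excision (-0.16) and XRCC1 (-0.20) changed sign, and the members outside S phase had a median of -0.12. Without _x_at and _s_at probe sets 48 members were measured and DCLRE1C changed sign (0.078). The cause was not tested. No paired analysis was possible because each group held 1 array. The spread between probe sets of a gene (0.15) exceeds most of the differences, so the order of single genes is not firm.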
